A study of Homo sapiens with 4 samples.

Results

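The 44 genes described here encode RNA polymerase I and its factors, the abundant proteins of the nucleolus, and proteins that modify, cut and fold ribosomal RNA. They were selected by symbol from lists of known function, and all 44 were found among the 28278 genes of the count table and passed the filter on low counts, which left 15150 genes for testing. In cells labelled HepG2 and given Sorafenib, 3 of the 44 (6.82%, beside 7.25% of all tested genes) were lower by at least 1.5-fold in the libraries labelled sgUSP22. These were *NOLC1*, *RRP12* and *NOC4L*, and none was higher by that much, beside 8.88% of all tested genes. Smaller shifts went both ways: 19 genes were lower and 11 higher at an adjusted p below 0.05, beside 25.8% and 26.8% of all tested genes. Among the C/D particle genes of this set, *FBL* was lower while *NOP56* and *NOP58* were higher.

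Ribosome production starts in the nucleolus, where RNA polymerase I transcribes a long precursor of ribosomal RNA. Small nucleolar RNAs, held in protein particles of the C/D and H/ACA kinds, guide methylation and pseudouridylation of that precursor, while assembly factors shape it into the small and the large subunit. The process takes a large share of a growing cell's energy, and many of its genes are classical targets of the transcription factor MYC, a common oncogene in liver cancer.

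RNA-seq was compared between 2 control libraries and 2 libraries labelled sgUSP22. All were labelled HepG2, a human liver cancer cell line, and all had been exposed to Sorafenib, a multikinase inhibitor used against liver cancer, for 24 h (at 10 µM in the study's methods). No library without the drug was analysed here. The cells carried lentiviral Cas9 with a guide against *USP22*, a ubiquitin protease that acts on histone H2B, or with a control guide, and were puromycin-selected populations. The labels do not say that replicates were separate cultures, so p-values measure only the spread between these libraries.

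The libraries held between 62030307 and 64728272 counts, and members of the set had between 996 and 114965 counts in every library. The targeted gene did not fall: *USP22* was counted 16450 and 16537 times with the control guide and 20279 and 20368 times in the libraries labelled sgUSP22, a log2 fold change of 0.22 ± 0.0341 (SE, n = 2 per group; edgeR adjusted p = 0.000394). Gene counts do not show whether a gene was edited, and the study checked its knockout cells by Western blot, a measure of protein that is not among the data used here. The direction of each comparison below rests on the label. Of 20 hepatocyte genes, 11 were at 0 in all libraries, *ALB*, *APOA1*, *APOB* and *TTR* among them, and 19 stayed under 20 counts in every library, which goes against the labelled cell type. The exception was *CPS1*, at 1016 and 975 CPM (counts per 1000000 counts of the TMM-scaled library) in control and 1329 and 1300 CPM in sgUSP22 libraries. Of 7 fibroblast genes *DCN* (log2 fold change 2.995) and *LUM* were higher by at least 1.5-fold and *PDGFRB* (-0.98) was lower. *COL3A1* rose by less (0.19), and *COL1A1* did not pass (edgeR adjusted p = 0.175). *THY1* had 12 to 31 counts and did not pass, and *COL1A2* had 0 counts except for 7 in sgUSP22 replicate 1. The fibroblast genes' summed level was 641 to 646 CPM in control and 900.2 to 902 CPM in sgUSP22 libraries. Most of it was *COL3A1*, at 498.7 and 507.5 CPM in control and 576.4 and 569 CPM in sgUSP22 libraries. Of 6 immune genes *CD68* was lower (log2 fold change -0.70), and *CD3E*, *LYZ* and *MS4A1* were at 0. *PTPRC* had 0 to 4 and *CD14* 4 to 13 counts. The sum was 73.8 to 74.1 CPM in control and 44.1 to 47.0 CPM in sgUSP22 libraries. Nearly all of that sum was *CD68*, at 73.77 and 73.9 CPM in control and 46.84 and 43.92 CPM in sgUSP22 libraries. Endothelial genes summed to at most 0.657 CPM. The part of these marker differences in the results below was not tested.

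Across the members, levels are given as CPM and differences as log2 fold changes of sgUSP22 over control. The shares of members past 1.5-fold, and the share of members higher at the adjusted p alone, did not exceed those of all tested genes. The 19 members lower at the adjusted p alone were 43.2% of the set, beside the 25.8% given above. The other 14 passed neither way, with log2 fold changes between -0.13 and 0.10. The values of the 2 groups did not overlap for 34 members (77.3%), 23 lower and 11 higher, beside 75.9% of all tested genes, a share near that of the background.

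The median log2 fold change of the members was -0.07 (quartiles -0.34 and 0.12), beside 0.00 for all tested genes (quartiles -0.28 and 0.30). Together the members took 0.794% and 0.778% of the counts in the control libraries and 0.748% and 0.753% in the sgUSP22 libraries. Their summed counts went from 492546 and 494708 to 484231 and 475753. *NOLC1* alone went from 36155 and 36458 to 24284 and 23674 counts. Fold changes and percentages here are shares of a library. A change in total RNA per cell and a change in the mix of cells cannot be told apart from a change in the genes. With library size alone in place of TMM scaling the median moved to -0.02, and 17 members were lower and 11 higher. With 1 library left out, none of the 30 members past the adjusted p changed direction, but the adjusted p rose above 0.05 in at least 1 of the 4 fits for 8 of them: *NPM1*, *POLR1E*, *NOP56*, *NOP58*, *NOP10*, *UTP4*, *BYSL* and *NIP7*.

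**Figure D1:**
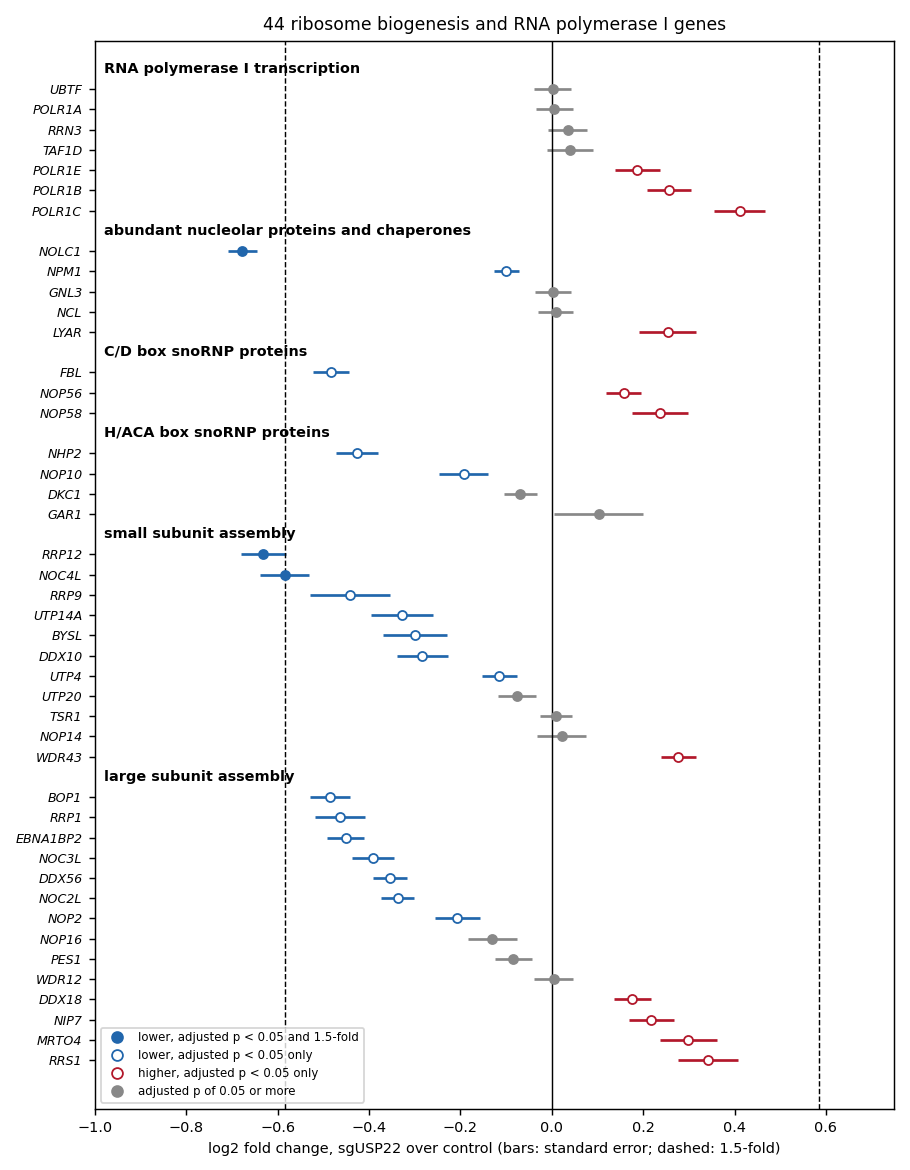
Log2 fold change of each of the 44 members, sgUSP22 over control, ordered within 6 roles, with bars of 1 standard error (2 libraries per group) and dashed lines at 1.5-fold; open symbols passed the adjusted p alone. Only *NOLC1*, *RRP12* and *NOC4L* reach a dashed line, and the highest member, *POLR1C*, stands at 0.41.

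Promoter sequence was available for 37 members, as RefSeq windows of GRCh38.p14 that run from 250 bases before to 50 bases after the gene's start. There is no window here for *BOP1*, *DDX18*, *NOLC1*, *NOP58*, *POLR1E*, *RRP12* and *RRS1*. The E-box CACGTG, which reads the same on both strands and is a sequence that MYC with MAX and other helix-loop-helix factors can bind, occurred in 17 of the 37 (45.9%), beside 12.5% of the 11359 tested genes with a window and 8.8% of all 27305 genes with a window. Some genes have more than one window. It lay in 9 of 16 members that were lower, 3 of 7 that were higher and 5 of 14 that passed neither way. The stretches below show the E-box in capitals for 6 of the lower and then the 3 higher members, since the same 6 letters occur near the start of genes that moved in opposite directions.

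FBL, chr19:39846356-39846385, minus strand, lower: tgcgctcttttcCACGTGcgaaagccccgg
EBNA1BP2, chr1:43172241-43172270, minus strand, lower: tggcgctggagcgattcggtggCACGTGga
RRP9, chr3:51941892-51941921, minus strand, lower: gggttcagctgcCACGTGagttctgcggcc
NOC3L, chr10:94362903-94362932, minus strand, lower: tagggacttcggCACGTGtgtcattccccg
BYSL, chr6:41921515-41921544, plus strand, lower: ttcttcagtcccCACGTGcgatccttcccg
NOP2, chr12:6568242-6568271, minus strand, lower: gctaggtccggattgCACGTGgagggccgc
WDR43, chr2:28894658-28894687, plus strand, higher: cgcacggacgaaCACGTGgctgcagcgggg
MRTO4, chr1:19251807-19251836, plus strand, higher: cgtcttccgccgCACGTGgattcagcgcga
LYAR, chr4:4290068-4290097, minus strand, higher: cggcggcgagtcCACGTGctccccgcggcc

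In 15 of these 17 members the E-box nearest to a start lay within 50 bases of it, and in 11 it lay past the start. Other short words common in promoters of growth genes were also frequent. The ETS word CCGGAAG, searched on both strands, was in 16 of 37 members (43.2%), beside 21.0% of tested genes. The NRF1 core TGCGCA, which also reads the same on both strands, was in 11 (29.7%), beside 15.4%. Over all tested genes the E-box was in 14.5% of those that were lower and 11.8% of those that were higher. These matches describe letters in a window and are not measured binding sites.

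Of the 7 RNA polymerase I members, 3 were higher, 0 were lower and 4 passed neither way. The shares of all tested genes at the adjusted p alone were 26.8% higher and 25.8% lower. Of 14 other subunits of RNA polymerase I and SL1, not among the members, 6 were lower and 3 higher by that measure. The lower included *TWISTNB* (log2 fold change -0.37) and *ZNRD1* (-0.18, but -0.02 after correction for GC content and length), and the higher *CD3EAP* (0.33). Counts by role, here and below, are descriptions of few genes. *POLR1C* (chr6:43509702-43562419, plus strand), a subunit that RNA polymerases I and III share, had 35.8 and 37.6 CPM in control and 48.3 and 49.3 CPM in sgUSP22 libraries. Both sgUSP22 values stood above both control values, from 36.7 ± 1.31 CPM (SD, n = 2) to 48.8 ± 0.722 CPM, a log2 fold change of 0.41 ± 0.0550 (SE, edgeR adjusted p = 0.000163). *POLR1B*, the second-largest subunit, rose by 0.26, from 69.0 and 73.2 CPM to 83.1 and 86.9 CPM. After correction for GC content and length (described below) its value was 0.08 and no longer passed (edgeR adjusted p = 0.184), while *POLR1C* (0.52) and *POLR1E* (0.25) still passed. *POLR1E*, a subunit used in initiation, rose by 0.19, from 3147 and 3197 counts to 3941 and 3687 counts.

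The largest subunit did not pass the test. *POLR1A* had 88.7 and 90.4 CPM in control and 89.7 and 90.04 CPM in sgUSP22 libraries, and the groups overlapped (log2 fold change 0.01, edgeR adjusted p = 0.925). *UBTF*, which binds the ribosomal DNA promoter and had the highest level by CPM of these 7 genes, stood at 111 ± 3.18 CPM in control and 111 ± 0.333 CPM in sgUSP22 libraries (SD, n = 2), a log2 fold change of 0.00 ± 0.0398 (SE, edgeR adjusted p = 0.972). *RRN3*, which brings the polymerase to the promoter, and *TAF1D*, a subunit of the promoter factor SL1, had log2 fold changes of 0.04 each, and their groups overlapped. The log2 ratio of *POLR1A* to *POLR1C* counts was 1.31 and 1.26 in control and 0.893 and 0.868 in sgUSP22 libraries, so the shares of these subunit transcripts were apart in the 2 groups.

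Among the abundant nucleolar proteins, *NOLC1* changed most of all members. *NOLC1* (chr10:102152176-102163871, plus strand), which encodes a chaperone of small nucleolar particles also called Nopp140, had 36155 and 36458 counts in control and 24284 and 23674 in sgUSP22 libraries. The level fell from 589 ± 6.05 CPM (SD, n = 2) to 368 ± 1.99 CPM, a log2 fold change of -0.68 ± 0.0315 (SE, edgeR adjusted p = 2.16e-07), and the groups were far apart compared with their spread. It was also the sole member past 1.5-fold when that fold itself was tested (edgeR glmTreat adjusted p = 0.0297).

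*NPM1*, nucleophosmin, a histone and ribosome chaperone, had the highest level of all members. Its 114632 and 114965 counts in control and 114035 and 112284 in sgUSP22 libraries gave 1861 ± 26.3 and 1737 ± 2.84 CPM (SD, n = 2). The fall was small, a log2 fold change of -0.10 ± 0.0267 (SE, edgeR adjusted p = 0.0105), and it did not pass with library size alone (adjusted p = 0.146). *NCL*, nucleolin, and *GNL3*, nucleostemin, had log2 fold changes of 0.01 and 0.00 and overlapping groups. *LYAR*, a nucleolar zinc finger protein, rose from 29.9 and 31.4 CPM to 36.1 and 37.1 CPM, a log2 fold change of 0.25.

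The C/D particle methylates ribosomal RNA, and its genes in this set moved apart. *SNU13*, another gene of this particle, is not among the members and is listed here with the other small subunit factors. It fell from 13539 and 13741 to 10705 and 10157 counts (log2 fold change -0.47, edgeR adjusted p = 5.03e-06). *FBL* (chr19:39834458-39846379, minus strand), fibrillarin, the methyltransferase of the particle, had 11293 and 12177 counts in control and 8936 and 8778 in sgUSP22 libraries. Its level fell from 190.2 ± 7.06 to 136.0 ± 0.00547 CPM (SD, n = 2), a log2 fold change of -0.48 ± 0.0395 (SE, edgeR adjusted p = 6.45e-06), and -0.28 after correction for GC content and length. *NOP56* and *NOP58*, the scaffold proteins that sit beside fibrillarin, rose instead. *NOP56* went from 154 and 149.8 CPM to 172 and 167 CPM (log2 fold change 0.16). *NOP58* went from 81.0 and 72.1 CPM to 86.6 and 93.6 CPM (0.24), and did not pass with no filter (edgeR adjusted p = 0.0536). The log2 ratio of *FBL* to *NOP56* counts changed sign, from 0.263 and 0.382 in control to -0.342 and -0.294 in sgUSP22 libraries. The ratio of *NOP56* to *NOP58* overlapped between the groups.

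In the H/ACA particle, which makes pseudouridine and also holds the RNA of telomerase, 2 of 4 members fell and 0 rose. Of all tested genes 25.8% were lower and 26.8% higher at the adjusted p alone. *NHP2* (chr5:178149463-178153894, minus strand), a small RNA-binding protein of the particle, had 11183 and 12362 counts in control and 9548 and 8943 in sgUSP22 libraries. The level fell from 190.8 ± 10.4 to 142 ± 4.78 CPM (SD, n = 2), a log2 fold change of -0.43 ± 0.0463 (SE, edgeR adjusted p = 4.14e-05), and -0.21 after correction for GC content and length. *NOP10*, its small partner, fell by 0.19 on the log2 scale but did not pass after that correction (-0.05, adjusted p = 0.427). *DKC1*, dyskerin, the pseudouridine synthase and the member of the particle with the most CPM, had 17021 and 16664 counts in control and 17181 and 16727 in sgUSP22 libraries. That gave 273 ± 8.51 and 260.3 ± 1.66 CPM (SD, n = 2) and a log2 fold change of -0.07 ± 0.0363 (SE), which did not pass (edgeR adjusted p = 0.137). *GAR1* had the fewest counts of all members, 996 and 1148 in control and 1158 and 1271 in sgUSP22 libraries, and its groups overlapped in CPM.

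**Figure D2:**
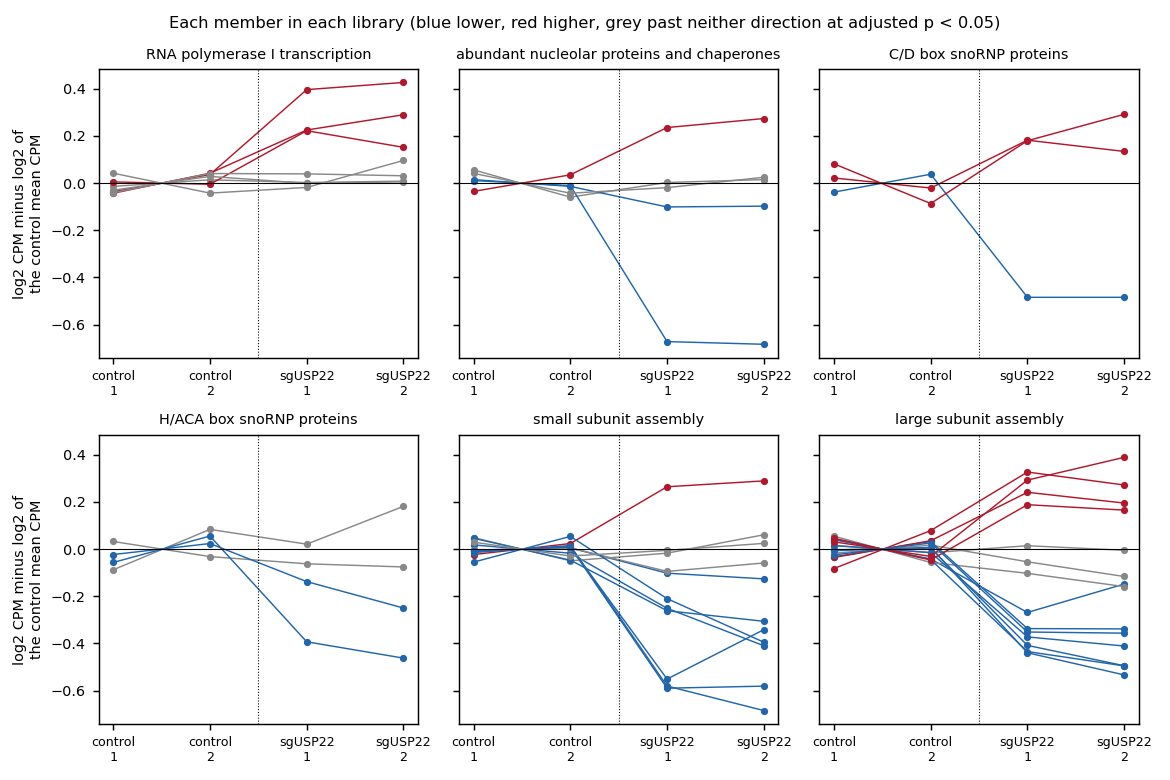
Log2 CPM of each member minus log2 of its control mean in each of the 4 libraries, 1 panel per role; lines join the values of 1 gene, blue for lower, red for higher and grey for neither at an adjusted p below 0.05. Within the RNA polymerase I panel no line is blue, while the C/D panel holds 1 blue and 2 red lines.

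Small subunit assembly factors were the role with the most members lower in share, 7 of 11, with 1 higher and 3 past neither way (median log2 fold change -0.28). Among all tested genes 25.8% were lower and 26.8% higher at the adjusted p alone. *RRP12* (chr10:97356358-97426076, minus strand), which helps late precursors of the small subunit mature and leave the nucleus, had 4984 and 5206 counts in control and 3630 and 3318 in sgUSP22 libraries. The level fell from 82.6 ± 1.21 to 53.3 ± 2.72 CPM (SD, n = 2), a log2 fold change of -0.63 ± 0.0501 (SE, edgeR adjusted p = 5.32e-06). It fell short of 1.5-fold with library size alone (-0.579), after correction for GC content and length (-0.536) and without sgUSP22 replicate 2 (-0.580). *NOC4L* (chr12:132144457-132152473, plus strand), a nucleolar factor that binds NOP14, had 2867 and 2970 counts in control and 2066 and 2042 in sgUSP22 libraries. Its level fell from 47.3 ± 0.416 to 31.5 ± 0.136 CPM (SD, n = 2), a log2 fold change of -0.59 ± 0.0546 (SE, edgeR adjusted p = 1.51e-05), which lies at the 1.5-fold threshold itself. It fell short of that fold with DESeq2 (-0.584), with no filter (-0.584), with library size alone (-0.533), without control replicate 2 (-0.576) and after correction for GC content and length (-0.355).

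*NOP14*, the partner of NOC4L, did not pass the test. It had a log2 fold change of 0.02 and overlapping groups, and the log2 ratio of *NOC4L* to *NOP14* counts went from -0.364 and -0.248 to -0.878 and -0.947. Also lower were *RRP9* (-0.44), a protein of the U3 particle that guides the first cuts of the precursor, *UTP14A* (-0.33), a cofactor of a helicase that releases U3, and *BYSL* (-0.30), bystin, a late small subunit factor. *DDX10* (-0.28), a helicase, and *UTP4* (-0.11), of the complex that first binds the nascent precursor, were lower as well. *UTP4* lost the call with DESeq2, whose adjusted p was 0.0657, and with library size alone (edgeR adjusted p = 0.192). After correction for GC content and length, *RRP9* (-0.24, edgeR adjusted p = 0.0561) and *BYSL* (-0.14, 0.104) no longer passed.

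*WDR43* was the single member of this role that rose. It belongs with UTP4 to the early complex on the nascent precursor, and its counts were 7772 and 8213 in control and 10227 and 10217 in sgUSP22 libraries (log2 fold change 0.28 ± 0.0379, SE, n = 2 per group; edgeR adjusted p = 0.000191), and 0.13 after correction for GC content and length. *TSR1*, a GTPase-like protein of late small subunit precursors and the member of this role with the most CPM, did not pass. It had 21964 and 21570 counts in control and 23106 and 23170 in sgUSP22 libraries, 353 ± 10.2 and 355 ± 5.16 CPM (SD, n = 2), a log2 fold change of 0.01 ± 0.0354 (SE, edgeR adjusted p = 0.848). *UTP20*, a large scaffold protein, had a log2 fold change of -0.08 and an adjusted p of 0.152, and after correction for GC content and length -0.29 and 0.000188.

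Of 14 large subunit factors, 7 were lower, 4 were higher and 3 passed neither way (median log2 fold change -0.17), and none reached 1.5-fold. Among all tested genes 25.8% were lower and 26.8% higher at the adjusted p alone. *BOP1* (chr8:144262045-144291438, minus strand), of the PeBoW complex with PES1 and WDR12, was the lowest and the only gene of this role within 0.10 of the threshold. It had 7570 and 7824 counts in control and 6047 and 5566 in sgUSP22 libraries, 125 ± 0.894 and 89.1 ± 4.10 CPM (SD, n = 2), a log2 fold change of -0.49 ± 0.0436 (SE, edgeR adjusted p = 1.17e-05), and -0.28 after correction for GC content and length. The other members of PeBoW did not pass: *PES1* had a log2 fold change of -0.08 and *WDR12* of 0.00, though after that correction *WDR12* stood at -0.26 and passed (edgeR adjusted p = 0.000718). The log2 ratio of *BOP1* to *PES1* counts was -0.0524 and -0.0716 in control and -0.448 and -0.480 in sgUSP22 libraries.

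*NOC2L* (chr1:944203-959309, minus strand), which forms dimers with NOC3L in large subunit precursors, had the most CPM of this role. Its counts were 16418 and 17574 in control and 14331 and 14066 in sgUSP22 libraries, 275.5 ± 8.80 and 218 ± 0.136 CPM (SD, n = 2), a log2 fold change of -0.34 ± 0.0366 (SE, edgeR adjusted p = 4.13e-05), and -0.20 after correction for GC content and length. *NOC3L* stood at -0.39, and at -0.59, past 1.5-fold, after that correction (edgeR adjusted p = 4.68e-06), and the ratio of the pair's counts overlapped between the groups. *RRP1* (-0.46), *EBNA1BP2* (-0.45), *DDX56* (-0.35) and *NOP2* (-0.21), an RNA cytosine methyltransferase, were lower too. After that correction *NOP2* no longer passed (-0.11, adjusted p = 0.107) and *DDX56* stood at -0.21.

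The 4 large subunit factors that rose were *RRS1* (0.34), which helps to build the 5S RNA into the subunit, *MRTO4* (0.30), a placeholder for a stalk protein, *NIP7* (0.22) and the helicase *DDX18* (0.18). *RRS1* went from 30.1 and 28.8 CPM to 36.0 and 38.5 CPM, and *MRTO4* from 42.3 and 47.3 CPM to 56.2 and 54.1 CPM. Both sgUSP22 values stood above both control values for each of the 4. After correction for GC content and length *NIP7* (0.13, edgeR adjusted p = 0.0501) and *DDX18* (0.01, 0.788) no longer passed. *NOP16* had a log2 fold change of -0.13 (edgeR adjusted p = 0.0656).

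Over 6 known complexes or pairs with more than one member here, the ratio of counts within a pair of genes did not overlap between the groups for 16 of 20 pairs (80%). Over all pairs of 14769 tested genes with a count in every library the share was 73%, so the members' share was near the background. These ratios need no scaling between libraries, but they were not corrected for GC content and length. After that correction the log2 fold changes of *BOP1* (-0.28) and *WDR12* (-0.26) were near each other. Those of *NOC2L* (-0.20) and *NOC3L* (-0.59) were further apart than before it. *FBL* (-0.28) and *NOP56* (0.25) stayed apart. The complexes were grouped with the genes' values known, so the count is a description.

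Compared per kilobase of the annotated transcript, control levels ran from 7.17 CPM per kb for *POLR1A* to 1410 CPM per kb for *NPM1*, a 196.5-fold range. *NCL* followed at 296 CPM per kb, then *NHP2* at 245, *FBL* at 169 and *NOLC1* at 158 CPM per kb. In the sgUSP22 libraries *NOLC1* stood at 98.9 and *FBL* at 121 CPM per kb. The Spearman correlation of the members' signed log2 fold change with their level was -0.142 across the 44 genes.

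GC content moved with the direction of change. Across the 44 members the Spearman correlation of log2 fold change with the GC content of the transcript was -0.498 (Pearson -0.506), and across 14480 tested genes with a value it was -0.254. Genes are not independent replicates, and these correlations are descriptions. The members that were lower had a median GC content of 55.8% and those that were higher 43.1%. After the trends of each library with GC content and transcript length were removed, all 30 members past the adjusted p alone kept their direction, and 15 of the 19 lower and 8 of the 11 higher still passed. The members' correlation with GC content was then -0.175. *NOLC1* (46.9% GC) stood at -0.70 after that step and *RRP12* at -0.54, while *NOC4L* (64.2% GC) stood at -0.36. The 2 members lower by at least 1.5-fold were then *NOLC1* and *NOC3L*. The members that no longer passed were *NOP10*, *RRP9*, *BYSL* and *NOP2* among the lower and *POLR1B* (adjusted p = 0.184), *NIP7* and *DDX18* among the higher.

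**Figure D3:**
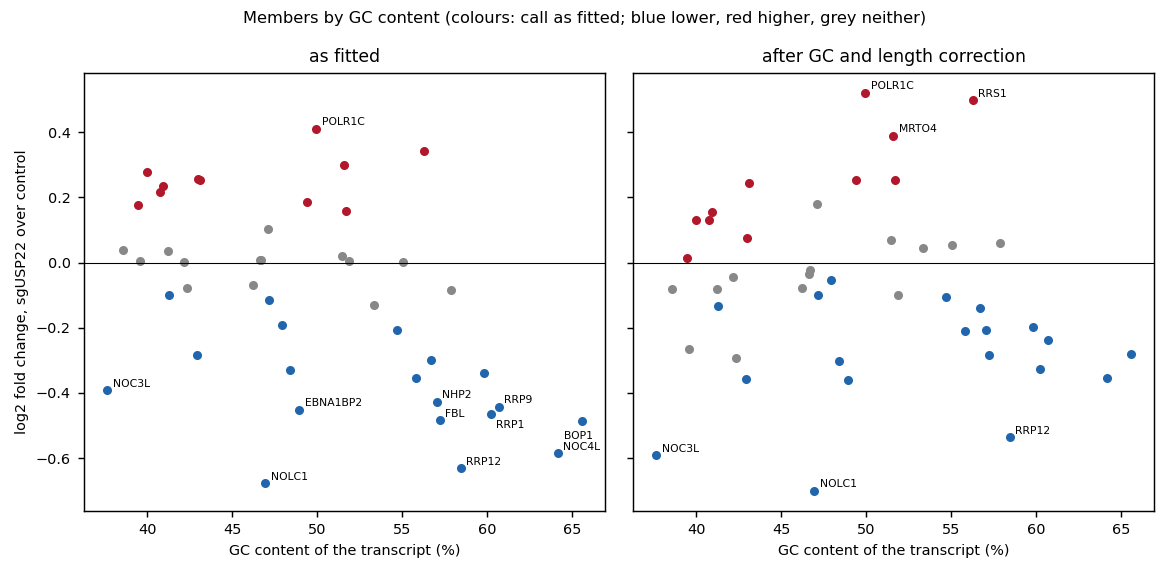
Log2 fold change of the 44 members, sgUSP22 over control, against the GC content of their transcript in percent, before (left) and after (right) removal of each library's trends with GC content and length; each point is 1 gene, coloured by its call before removal. On the left *BOP1* and *NOC4L* lie at the lower right and the red points lie mostly to the left, and on the right *NOLC1*, *NOC3L* and *RRP12* are the lowest points.

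Position in the genome moved with the change as well. *NOLC1*, *RRP12* and *NOC3L* all lie on chromosome 10 beyond 40 Mb, and all 3 were lower, 2 of them by at least 1.5-fold. The 429 tested genes of that stretch had a median log2 fold change of -0.40, and 127 of them (29.6%) were lower by at least 1.5-fold, beside 971 of the 14721 tested genes elsewhere (6.6%; median 0.01). Without the 3, 1 of 41 members (2.44%) was lower by at least 1.5-fold, which was *NOC4L*, while 16 were lower and 11 higher at the adjusted p alone, with a median of 0.00. In these libraries a change of the 3 members and a change of the whole stretch cannot be told apart.

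**Figure D4:**
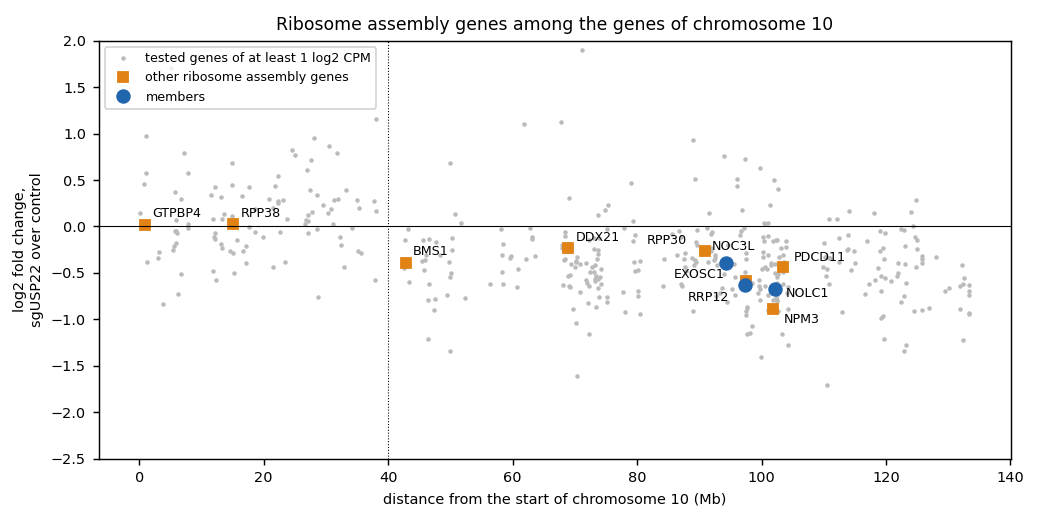
Log2 fold change, sgUSP22 over control, of tested genes of chromosome 10 with at least 1 log2 CPM (grey, 429 genes, 2 of them outside the range drawn) by distance from the chromosome's start in Mb, with the 3 members in blue and the other ribosome assembly genes in orange; the dotted line is at 40 Mb. The members and 6 other assembly genes beyond the line lie below 0 among their neighbours.

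Small nucleolar RNAs are mostly cut from introns of other genes, and 9 members carry one in the annotation: *NCL*, *NOP56*, *NOP58*, *DKC1*, *WDR43*, *POLR1C*, *TAF1D*, *GNL3* and *TSR1*. Of these 9 hosts 0 were lower, 4 were higher and 5 passed neither way. *POLR1C*, one of the 4 higher, is a host only through an entry without a gene name. Of the 35 members without one, 19 were lower and 7 higher. Of 213 other tested protein-coding hosts, 83 (39.0%) were lower and 59 (27.7%) higher, and of 12856 tested protein-coding genes without one 27.3% were lower and 29.4% higher. The counts are of the host's own transcript, and the small nucleolar RNAs were not measured.

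Other genes of ribosome assembly gave a wider view. Of 133 genes not among the members, all tested, 4 were lower and 2 higher by at least 1.5-fold, beside 7.25% and 8.88% of all tested genes. At the adjusted p alone 46 were lower and 30 higher, beside 25.8% and 26.8% of all tested genes. The median log2 fold change of the 133 was -0.00. The shares at the adjusted p alone are also the background for the counts by list that follow. Of 14 other subunits of RNA polymerase I and SL1, 6 were lower and 3 higher, and of 48 other small subunit factors 15 were lower and 12 higher. Of 46 other large subunit factors 17 were lower and 10 higher, and of 25 genes of the exosome and RNase MRP, which trim the precursor, 8 were lower and 5 higher.

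Among these, *NPM3*, a relative of nucleophosmin on the same stretch of chromosome 10, fell from 71.6 and 72.4 CPM to 41.5 and 36.4 CPM (log2 fold change -0.89), the lowest of the 133. *PPAN*, a large subunit factor, fell from 58.1 and 63.8 CPM to 39.3 and 32.9 CPM (-0.76). *POLR2E*, a subunit common to all 3 nuclear RNA polymerases, fell by 0.60 on the log2 scale. *EXOSC1*, of the exosome and on the same stretch of chromosome 10 as *NPM3*, fell by 0.59. Of the 133, 6 lie on that stretch, and 2 of these were lower by at least 1.5-fold, beside 2 of the 127 elsewhere (1.57%). *MDN1*, the giant AAA ATPase that strips factors from large subunit precursors, rose from 122 and 127.5 CPM to 184 and 197 CPM (0.61). *TAF1B*, of SL1, rose from 16.8 and 18.4 CPM to 28.0 and 25.5 CPM (0.60).

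The ribosome's own proteins gave a more uniform picture than the assembly factors. Of 82 cytosolic ribosomal protein genes, 79 were lower and 1 higher at the adjusted p alone, beside 25.8% and 26.8% of all tested genes. By at least 1.5-fold 4 were lower, beside 7.25% of all tested genes. The median log2 fold change of the 82 was -0.42 (-0.28 after correction for GC content and length). Of 18 proliferation genes, 8 were lower and 5 higher at the adjusted p alone, beside the same 25.8% and 26.8%. *CDK1* was lower by at least 1.5-fold (-0.65) and the cyclin genes *CCNE1* (1.03) and *CCNE2* (1.18) higher, and the summed level of the 18 was 4845 and 4767 CPM in control and 4388 and 4373 CPM in sgUSP22 libraries. The relation of these lists to the members was not tested.

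Some members share sequence or position with other genes. Exons of 11 members overlap a gene on the opposite strand, and the strand setting of the counting is not given in the sources used here. *RMND5B*, opposite *NHP2*, had 3562 to 3822 counts against 8943 to 12362 for *NHP2*, and *GLT8D1*, opposite *GNL3*, had 2871 to 3925. The genome annotation holds entries named as pseudogene copies of 12 members, *NPM1* among them, so reads of these genes may be shared with copies. The kind of copy was not read, and copies under other names were not counted. *RRN3P2* and *RRN3P3*, copies of *RRN3*, had 103 to 188 counts.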

How the data were processed

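RNA-seq of cells labelled HepG2 was available for 2 control and 2 sgUSP22 samples, as 1 table of gene counts deposited by the authors. The submitters' processing notes name HISAT2 2.2.1, StringTie 2.2.1 and DESeq2 1.34.0. Read length, strand setting and gene annotation are not given in the sources used here. The deposited counts are whole numbers per gene symbol, and every count column was used.

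Genes were filtered with filterByExpr (minimum count 10), scaled by TMM and tested with edgeR 4.0.16 (quasi-likelihood test, Benjamini-Hochberg adjustment over all 15150 tested genes, R 4.3.3), with calls at an adjusted p below 0.05 with and without a fold of 1.5. The methods of the study name DESeq2, which was run as an alternative (version 1.42.0). A count of 3, taken as the floor, equals 0.0463 to 0.0484 CPM, which covers counting error only. Replicates differed by more than counting noise: chi-square averaged 7.30 per gene between the control and 7.60 between the sgUSP22 libraries.

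Coordinates, transcript length and GC content came from GENCODE on GRCh38, to which 25915 of 28278 symbols were matched, 433 of them by a RefSeq synonym; all 44 members matched. GC content was known for 95.6% of tested genes. Library trends with GC content and length were removed by lowess (span 0.3). Promoter windows came from RefSeq, GRCh38.p14.

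Members, gene lists, complexes and markers were chosen with earlier results of these data known. Full values were given for members past 1.5-fold and, in each role, for the member of highest mean CPM and that of largest change; members within 0.10 (log2) of the threshold and other assembly genes past 1.5-fold were named. No set test was made. Alternatives to the test were DESeq2, a test against 1.5-fold and a replicate block; alternatives to the scaling were RLE factors, library size alone and a GC and length correction. The filter was also dropped or raised to a mean of 50 counts, and each library was left out in turn. Leaving out the members on chromosome 10 beyond 40 Mb was added after the data were seen.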

Additional observations from a re-analysis of the deposited data

How the results depend on the processing

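Members lower by at least 1.5-fold numbered 3. They numbered 2 with DESeq2, with no filter and after GC and length correction (then *NOLC1* and *NOC3L*). With library size alone, in the test against 1.5-fold and without chromosome 10 beyond 40 Mb they numbered 1. The cause was not tested. Leaving out 1 library gave 2 to 3, and no setting gave a member higher by that much. At the adjusted p alone, 17 to 20 were lower and 8 to 11 higher with all libraries, and 15 to 19 and 8 to 11 with 1 left out, when the lone library is assumed to vary like the other group. Other assembly genes lower by at least 1.5-fold (4) numbered 2 with library size alone and 1 in the test against 1.5-fold, and those higher (2) numbered 0 in that test, 1 after GC and length correction and 0 to 2 with 1 library left out, where 0 was without control replicate 1. The members' median (-0.0731) was -0.0209 with library size alone, -0.0810 after GC and length correction and -0.0798 to -0.0563 with 1 library left out.

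None of the 30 members past the adjusted p reversed. Their edgeR adjusted p rose above 0.05 without control replicate 1 for *UTP4* (0.0727), without control replicate 2 for *NOP58* (0.0578), *NOP10* (0.0545) and *UTP4* (0.102), without sgUSP22 replicate 1 for *POLR1E* (0.143), *NOP56* (0.0646) and *NIP7* (0.0627), and without sgUSP22 replicate 2 for *NPM1* (0.0527), *NOP58* (0.0653), *NOP10* (0.137), *UTP4* (0.113) and *BYSL* (0.056). With all libraries, *NOP58* did not pass with no filter (edgeR adjusted p = 0.0536). *NPM1* (0.146) and *UTP4* (0.192) did not pass with library size alone, nor *UTP4* with DESeq2 (0.0657). Among the members past neither way, *UBTF* and *GNL3* reversed with RLE factors (-0.00167 and -0.000496) and with a mean of at least 50 counts (-0.00245 and -0.00128). After GC and length correction, *POLR1A* (-0.101), *RRN3* (-0.0816), *TAF1D* (-0.0803), *NCL* (-0.0232), *GNL3* (-0.0454), *TSR1* (-0.0348), *PES1* (0.0615), *WDR12* (-0.264) and *NOP16* (0.0459) reversed. *WDR12* then passed (edgeR adjusted p = 0.000718), as did *UTP20*. With 1 library left out, *POLR1A* ranged from -0.00926 to 0.0192, *UBTF* from -0.0278 to 0.0313, *RRN3* from -0.00527 to 0.0757, *TAF1D* from -0.0192 to 0.0828, *NCL* from -0.0483 to 0.0672, *GNL3* from -0.0385 to 0.0449, *NOP14* from -0.0267 to 0.0710, *TSR1* from -0.0201 to 0.0385 and *WDR12* from -0.0177 to 0.0194.

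Replicate numbers did not pair the libraries (correlation of deviations 0.042). With the replicate block 3 members were lower by at least 1.5-fold, and all 44 kept their direction and side of the threshold. The test against 1.5-fold gives no counts at the adjusted p alone. With 2 libraries per group, small changes in genes of few counts such as *GAR1* (SE 0.0975) were not detectable.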
